A study of Mus musculus with 4 samples.

Results

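The genes described here encode the proteins of the cytosolic ribosome. They were chosen by name alone, as the symbols made of Rpl or Rps and a number, with or without an a, x or y or an l that marks a paralog, together with Rplp0, Rplp1, Rplp2, Rpsa and Fau, and with symbols of pseudogenes left out. This gave 84 of the 16861 genes listed in each library, 51 of the large subunit (the Rpl and Rplp genes) and 33 of the small subunit (the Rps genes, Rpsa and Fau). GENCODE annotates 83 of them as protein-coding on GRCm39, and Rpl6l, which the name rule also takes, as a processed pseudogene. Rps3a1 and Rpl36al encode ribosomal proteins too, but their symbols fall outside the rule.

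The libraries were made from germinal vesicle (GV) oocytes of 3-week-old female C57BL/6J mice. The cumulus cells had been taken off by pipetting, and a DNA dye showed which of the 2 chromatin configurations an oocyte had. In non-surrounded nucleolus (NSN) oocytes the chromatin is dispersed, and in surrounded nucleolus (SN) oocytes it condenses as a ring around the nucleolus. For this sorting the oocytes of both groups were stained in medium that held milrinone and were exposed briefly to ultraviolet light. No mutation is stated, nor any treatment that differed between the groups. Oocytes of unclear configuration had been left out. There were 2 NSN and 2 SN libraries, each of 15 pooled oocytes, prepared by Smart-seq2, in which poly(A) RNA is copied from an oligo(dT) primer and amplified.

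A ribosome carries 1 copy of most of its proteins, bound to the ribosomal RNAs of a small subunit, which holds the decoding centre, and a large subunit, which joins the amino acids and lets the growing chain out through an exit tunnel. Messages of ribosomal proteins typically begin with a C followed by a stretch of pyrimidines, the 5′ terminal oligopyrimidine (TOP) motif, through which their translation is tied to growth signals. The growing oocyte builds up a store of ribosomes and of messages, and transcription is largely silent by the time chromatin surrounds the nucleolus, so that the messages measured in an SN oocyte are mostly stored ones.

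The start of the gene carries the sequence for which this family is known, so the windows around the RefSeq starts of the 6 members that were called different between NSN and SN oocytes are shown first, with Rps6, the substrate of the S6 kinases, as a member whose TOP motif lies at the start. Each window runs from 10 bases before the start to 20 bases from it, on the gene's strand of GRCm38.p6, and the capitals mark the longest run of C and T that opens with C and begins within 10 bases of the start. A second start is annotated for Rps27l and is given as well.
Rps6, chr4:86857348-86857377, minus strand: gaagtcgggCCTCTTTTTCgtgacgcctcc
Rpl38, chr11:114668570-114668599, plus strand: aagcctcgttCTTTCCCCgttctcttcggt
Rpl37a, chr1:72711250-72711279, plus strand: CTCgccggtctaaaaccgcgcatgcgcatt
Rpl39, chrX:37085203-37085232, minus strand: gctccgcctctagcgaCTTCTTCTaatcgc
Rps12, chr10:23787190-23787219, minus strand: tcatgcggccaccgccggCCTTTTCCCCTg
Rps27l, chr9:66946076-66946105, plus strand: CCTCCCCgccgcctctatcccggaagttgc
Rps27l, chr9:66946403-66946432, plus strand: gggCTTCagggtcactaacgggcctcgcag
Rps23, chr13:90923112-90923141, plus strand: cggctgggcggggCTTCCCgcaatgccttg
In Rpl38 the run of 8 pyrimidines began on the annotated start itself, whereas in Rpl39 and Rps12 runs of 8 and 11 began 6 and 8 bases after it. In Rps23 the longest run had 6 letters, and the Rpl37a window held no run longer than 3. RefSeq starts were found for 62 of the 84 members. A run of at least 5 that opened with C exactly at a start, read on the gene's strand, was found for 14 of the 62 members (22.6%) and for 3.01% of the 27025 genes in the same table, and one of at least 7 within 10 bases of a start for 31 members (50%) and 14.1% of the genes. The annotated starts were not measured in these oocytes, and a matching run is a description of the letters.

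The libraries held between 17069772 and 17998361 read pairs, recovered from the deposited FPKM (read pairs relative to gene length and library total). At these totals, a gene of 1 kb with 3 read pairs has an FPKM between 0.167 and 0.176, and that limit, like the intervals given here, takes in counting error alone, because PCR copies of a molecule are not independent. Of 10 oocyte marker genes 10 were expressed, with a summed FPKM of 22968 to 24374 in the NSN and 16446 to 16939 in the SN libraries. Granulosa and cumulus cell markers summed to 9.52 and 13.4 FPKM in NSN and 13.9 and 13.2 in SN over the 8 of 11 that were listed, most of it Cyp19a1, and the defining genes Amh, Amhr2 and Foxl2 were not listed and were not analysed here. Of 9 blood and stroma markers, Dcn and Star were listed, with a summed FPKM of at most 2.88. Their part in the results was not tested.

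Ribosomal protein messages were a small and similar part of all 4 libraries. The 84 genes took 0.581% (95% Wilson interval 0.578% to 0.585%) and 0.572% (0.568% to 0.575%) of all read pairs for NSN replicates 1 and 2, and 0.581% (0.578% to 0.585%) and 0.620% (0.616% to 0.623%) for SN replicates 1 and 2. SN replicate 2 was highest, and SN replicate 1 was level with NSN replicate 1. Summed FPKM of the members was 4884 and 4807 in NSN and 5052 and 5313 in SN, so that the groups did not overlap on that scale. A library holds a fixed number of oocytes and its values are shares of a total, so fewer oocytes with a message and less of it per oocyte cannot be told apart.

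Single members differed widely in level, with mean FPKM from 0.243 for Rps10 to 729 for Rpl17. The median member had a mean FPKM of 18.8, against 4.45 for the 11672 genes that were tested, those whose mean FPKM reached 0.5. There were 16 members at 100 FPKM or more, 40 between 10 and 100, and 28 below 10. The 5 most abundant members together held between 39.2% and 42.5% of the summed FPKM of the family in each library.

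**Figure D1:**
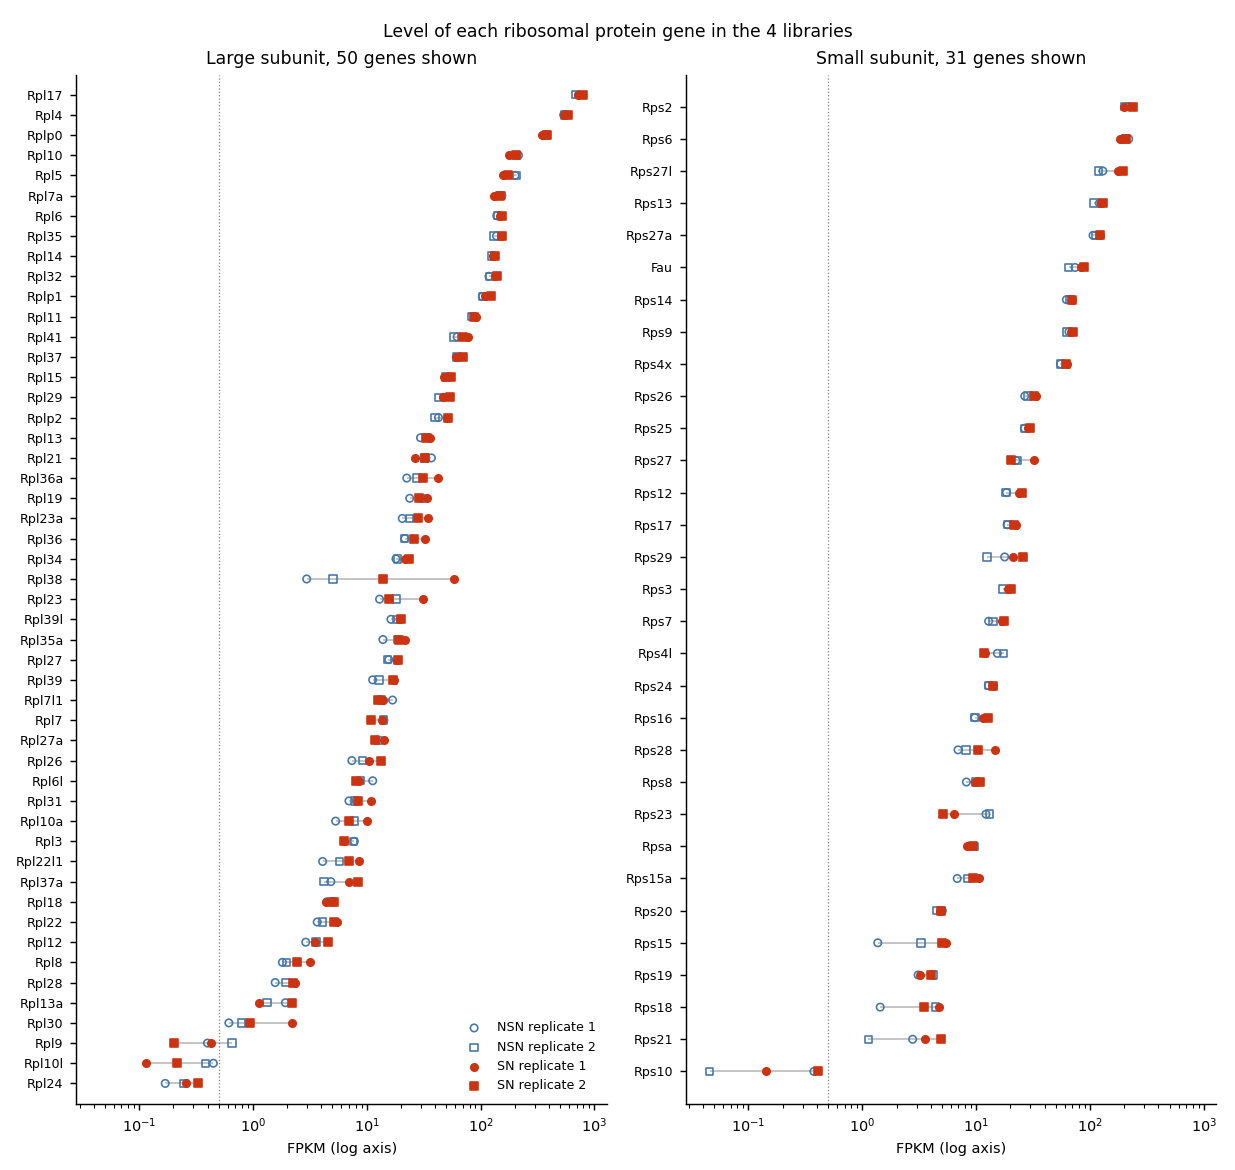
FPKM (horizontal log axis) of 50 large subunit and 31 small subunit genes, ordered by mean, with open symbols for the 2 NSN and filled symbols for the 2 SN libraries; grey lines span the 4 values and the dotted line marks the mean FPKM of 0.5 needed for a test. Rpl17 and Rpl4 lie at the top, and the 4 values of Rpl38 are spread the widest among genes above 5 FPKM. In 4 genes the mean is left of the dotted line, though the value of Rpl9 in NSN replicate 2 (0.653) lies right of it.

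In the large subunit, the highest levels were those of Rpl17, Rpl4, Rplp0 and Rpl10. Rpl17, at the rim of the tunnel exit, had FPKM of 727 and 684 in the NSN and 711 and 793 in the SN libraries. Rpl4, whose loop lines the tunnel, had 537 and 548 in NSN and 544 and 581 in SN. Both genes had overlapping groups, with log2 fold changes of 0.09 ± 0.08 (SE) and 0.05 ± 0.07 that turned to -0.06 and -0.10 when the libraries were scaled to the median ratio over genes.

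Rplp0, the base of the acidic stalk that binds elongation factors, followed with 377 and 380 FPKM in NSN and 345 and 383 in SN. Rpl10, an X-linked protein that joins the large subunit late, had 215 and 206 in NSN and 177 and 206 in SN. In these 4 abundant members the SN mean was between 0.907 (Rpl10) and 1.07 (Rpl17) times the NSN mean.

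Among small subunit genes, Rps2, which sits near the entry of the message, had 217 and 203 FPKM in NSN and 199 and 240 in SN. Rps6 had 219 and 206 FPKM in NSN and 183 and 206 in SN, so that SN replicate 2 sat just under NSN replicate 2. Rps27l, a paralog of Rps27 known as a p53 target, was next in level. Rps13 followed, with 121 and 108 in NSN and 126 and 130 in SN.

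At the other end, 4 members did not reach a mean FPKM of 0.5 and were not tested. Rps10, a protein of the small subunit head, had 0.376 and 0.0456 FPKM in NSN and 0.144 and 0.409 in SN, on 8, 1, 3 and 9 read pairs. Rpl24, mutated in the Belly spot and tail mouse, had 2 and 3 read pairs in NSN and 3 and 4 in SN. Rpl9 had 19 and 32 pairs in NSN and 20 and 10 in SN. Rpl24 and 2 of the Rps10 libraries were close to or at the limit of 3 read pairs, and these genes were not tested.

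Below the level for a test was also Rpl10l, the autosomal paralog of Rpl10 that serves in spermatocytes, with 8 and 7 read pairs in NSN and 2 and 4 in SN. The lowest tested large subunit gene was Rpl30, with 0.615 and 0.797 FPKM in NSN and 2.195 and 0.942 in SN. Of the small subunit, Rps21 and Rps18 had mean FPKM of 3.10 and 3.50.

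Ribosomal protein genes have many processed pseudogenes, and the deposited counts used primary alignments with a minimum mapping quality of 10, so the coding sequence of each member was cut into windows of 75 bases and each window was looked up elsewhere in GRCm39. At the median of 83 members, 82.4% of the windows occurred at least once more in the genome, 27 members had every window elsewhere, and 3, among them Rpl39l and Rps3, had none. This measure did not order the members by level, with a Spearman rho of 0.15 between the mean FPKM and the share of such windows over 83 genes, which share the same 4 libraries. Rpl24 at the bottom and Rpl17, Rpl10, Rpl5 and Rps6 at the top each had 100% of their windows elsewhere, and Rpl10l, also at the bottom, had 0.528%. Levels of members with copies are therefore uncertain, and how reads were shared out among copies was not tested.

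The pseudogenes named after members were listed at low levels. There were 46 of them, with a median mean FPKM of 0.932 and a highest of 19.1 for Rpl17-ps10, and of the 32 that were tested none passed. The ribosomal proteins outside the name rule were as uneven as the members. Rps3a1, of the small subunit body, had 84.2 and 80.3 FPKM in NSN and 78.0 and 95.2 in SN, whereas Rpl36al had 0.127 and 0.330 in NSN and 0.390 and 0.123 in SN. Rps27rt, a copy of Rps27, had 0.922 and 1.19 in NSN and 4.86 and 1.19 in SN, and Rack1, a scaffold on the small subunit head, had 23.9 and 23.1 in NSN and 23.3 and 25.2 in SN. None of the 3 that were tested (Rps3a1, Rps27rt and Rack1) passed.

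SN was compared with NSN gene by gene with limma on log2(FPKM + 0.5), a scale that understates the change of low genes, and a gene was called at a Benjamini-Hochberg adjusted p under 0.05 over all genes tested and a fold of at least 1.2. Of the 84 members 80 entered this test, and 5 were called higher and 1 lower in SN oocytes. Of all 11672 genes tested, 5.95% were called higher, 1.98% lower and 7.93% in either direction, against 7.50% of the tested members, so that the family's share was close to the background. Higher in SN were Rpl38, Rpl37a, Rpl39, Rps27l and Rps12, and lower was Rps23. With libraries scaled to the median ratio the split turned, with 0 members higher and 2 lower (Rps23 and Rps4l) and with 78 genes higher (0.668%) and 179 lower (1.53%) over all genes (2.2% together), against 695 and 231 as deposited. By limma's voom on the read pairs, 9 members and 19.8% of all genes were called, and with the replicate number as a block 2 members (Rps23 and Rps27l) and 3.62% of all genes. The calls also turned on single libraries, since 0 members passed without NSN replicate 1 (19 at an unadjusted p under 0.05), 13 without NSN replicate 2, 3 without SN replicate 1 and 1 (Rpl38) without SN replicate 2. Tests of 2 libraries against 2 can give no exact permutation p below 0.333, so the adjusted p-values rest on limma's pooling of the spread over genes, and nothing in the labels says that replicates came from separate animals.

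**Figure D2:**
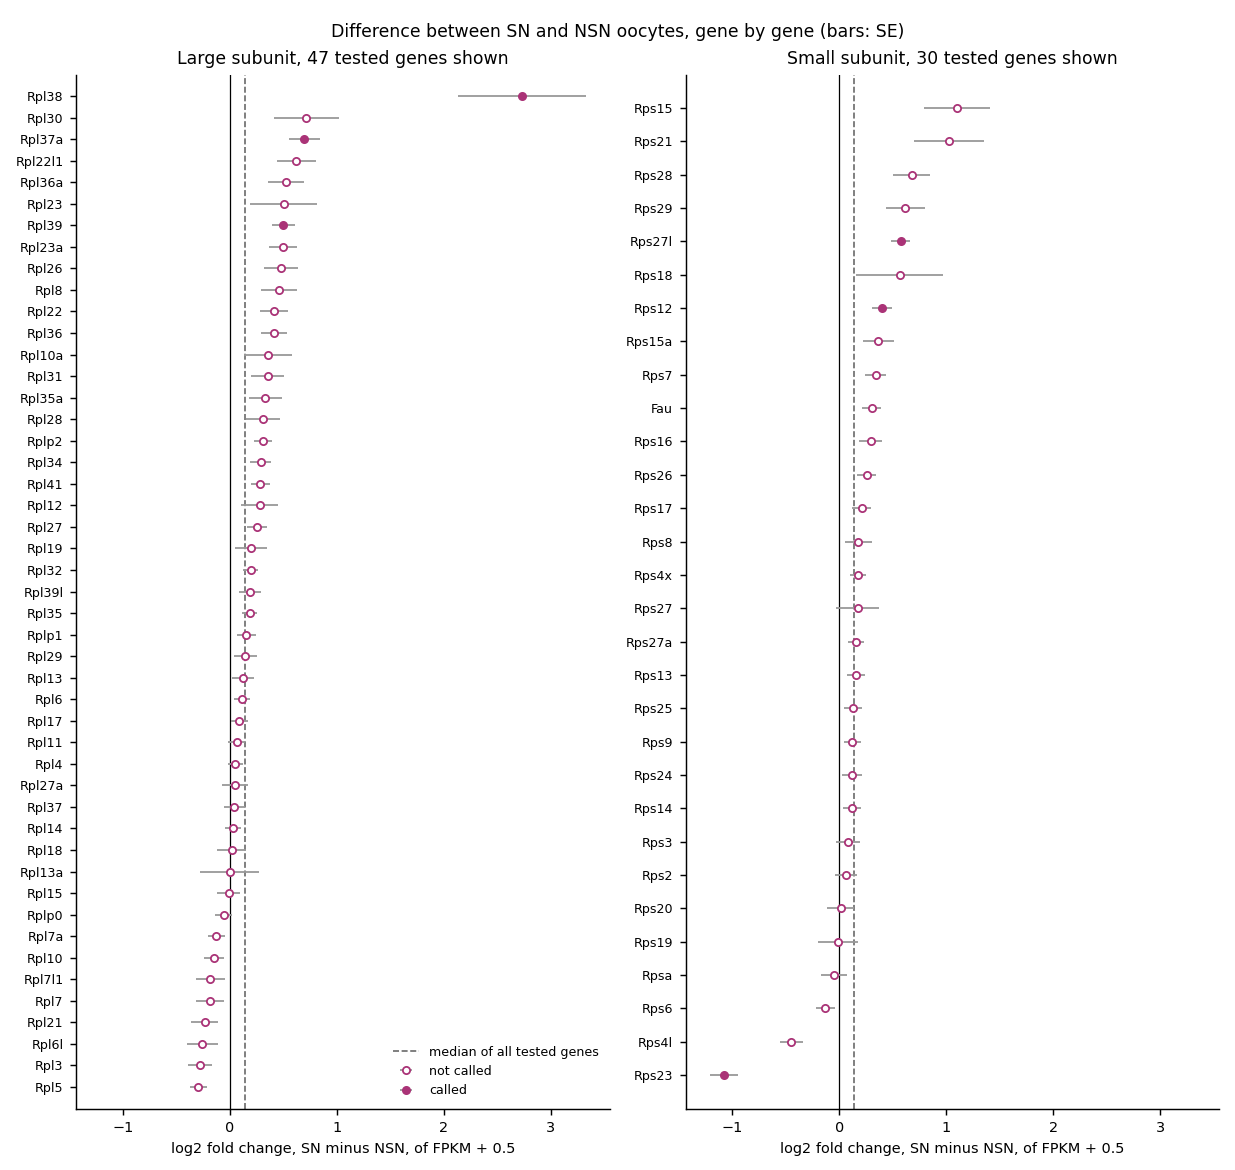
Log2 fold change, SN minus NSN, of log2(FPKM + 0.5) for 47 tested large subunit and 30 tested small subunit genes, with bars for the SE; filled points were called, the solid line is 0 and the dashed line is the median of all tested genes, 0.14. Most points lie to the right of 0 and close to the dashed line, with Rpl38 far to the right at 2.73 and Rps23 far to the left at -1.08.

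Rpl38, a large subunit protein whose loss in the Tail short mouse alters the translation of Hox messages, had the largest rise. Its FPKM was 2.97 and 5.05 in NSN and 58.4 and 13.8 in SN, on 28, 49, 540 and 135 read pairs. The groups did not overlap, and SN replicate 1 stood 4.22-fold above SN replicate 2. The log2 fold change was 2.73 ± 0.60 (SE, adjusted p = 0.0466 by limma), and without SN replicate 1 it was 1.71. The gene lies at chr11:114559350-114563166 on the plus strand of GRCm39, and every 75-base window of its coding sequence occurs elsewhere. Its processed pseudogene Rpl38-ps2 had 1 and 4 read pairs in NSN and 15 and 6 in SN, in the same order of libraries, and the share of reads common to both was not tested.

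Rps23 was the member that fell. This protein, which reaches into the decoding centre, is encoded at chr13:91071077-91085586 on the plus strand, and its FPKM was 12.2 and 13.1 in NSN and 6.38 and 5.16 in SN. The SN libraries were at 0.456 of the NSN mean, with no overlap between the groups and replicates within 1.24-fold of each other. The log2 fold change was -1.08 ± 0.13 (SE, adjusted p = 0.0364 by limma), and -1.22 with an adjusted p of 0.0451 after median ratio scaling. Exons of other genes covered 28.8% of its exonic bases, and counting did not use strand.

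Rps27l, at chr9:66853340-66856808 on the plus strand, had 130 and 118 FPKM in NSN and 176 and 194 in SN, on 1229 to 2030 read pairs. Replicates of either group were within 1.11-fold of each other, and the SN mean was 1.49 times the NSN mean. The log2 fold change was 0.58 ± 0.09 (SE, adjusted p = 0.0364 by limma), and 0.42 with an adjusted p of 0.0684 under median ratio scaling. Of its coding windows, 9.13% occurred elsewhere, the lowest share among the 6 called members.

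Rpl37a, at chr1:72750364-72756093, a zinc-binding protein of the large subunit, had 4.84 and 4.20 FPKM in NSN and 6.93 and 8.36 in SN. Its log2 fold change was 0.70 ± 0.14 (SE), with an adjusted p of 0.0440 by limma, and 0.55 after median ratio scaling.

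Rpl39, at chrX:36345092-36349130 on the minus strand, a small protein that lines the exit tunnel, had 11.3 and 12.9 FPKM in NSN and 17.3 and 17.2 in SN. The SN replicates were almost equal and 1.43 times the NSN mean, with a log2 fold change of 0.50 ± 0.11 (SE, adjusted p = 0.0454 by limma). Rps12, at chr10:23661081-23663173 on the minus strand, a protein of the small subunit head, had 18.5 and 18.3 in NSN and 23.7 and 25.2 in SN. It had the smallest called change, 0.40 ± 0.09 (SE, adjusted p = 0.0487 by limma), and exons of other genes covered 29.3% of its exonic bases. After median ratio scaling the rises of Rpl38, Rpl37a, Rpl39 and Rps12 no longer passed, with adjusted p of 0.0667, 0.0813, 0.0824 and 0.144 by limma.

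Some wide differences did not pass. Rps15, a head protein at the subunit interface, had 1.37 and 3.28 FPKM in NSN and 5.39 and 5.03 in SN (log2 fold change 1.10 ± 0.31, adjusted p = 0.0717 by limma), and Rps21 had 2.77 and 1.13 in NSN and 3.57 and 4.94 in SN (1.02 ± 0.33, adjusted p = 0.0926 by limma). In each the NSN replicates were over 2-fold apart. Rps28, on the small subunit head, had 6.94 and 8.17 in NSN and 14.5 and 10.5 in SN. Rpl30 had a log2 fold change of 0.71 ± 0.30 that rested on SN replicate 1, and without that library it was 0.26.

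In the downward direction, Rps4l, an autosomal copy of the X-linked Rps4x, had 15.4 and 17.4 FPKM in NSN and 12.03 and 11.7 in SN, with a log2 fold change of -0.45 ± 0.11 (adjusted p = 0.0533 by limma) that passed under median ratio scaling (adjusted p = 0.0471). Rpl5 had 201 and 207 in NSN and 158 and 174 in SN, on 5526 to 7576 read pairs, with -0.29 ± 0.08 (adjusted p = 0.0678 by limma), and 51.4% of its exonic bases lay in exons of other genes. Rpl3, a protein near the peptidyl transferase centre, had 7.78 and 7.69 in NSN and 6.29 and 6.29 in SN. Rpl6l was lower by a similar amount, with 11.3 and 8.78 in NSN and 8.54 and 7.97 in SN. In each of these 4 genes, named for their low log2 fold changes, the SN values were under the NSN values without overlap, and none was called. Of all tested genes 17.8% lay below in this way.

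Counted over the family, SN lay above NSN without overlap in 44 of the 80 tested members and below it in 9, while the groups overlapped in 27. Of all tested genes 44.8% lay above and 17.8% below. The log2 fold change was above 0 in 63 members (78.8%), against 66.7% of all tested genes, and above 0 in 46 of 80 after median ratio scaling. The family's median log2 fold change was 0.18, against 0.14 for all tested genes, a distance of that median from 0 which median ratio scaling took to 0.01 while the members' median went to 0.03.

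Large and small subunit genes had nearly the same median difference. The 48 tested large subunit genes had a median log2 fold change of 0.19, with 3 called higher, and the 32 tested small subunit genes one of 0.18, with 2 called higher and 1 lower. The difference between the medians was 0.01. Of all tested genes 5.95% were called higher and 1.98% lower. Summed FPKM gave another view, since it follows the abundant genes. The large subunit sum was 2.71 and 2.77 times the small subunit sum in NSN replicates 1 and 2, and 2.58 and 2.55 times in SN replicates 1 and 2.

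On the log2 scale this ratio was 1.45 ± 0.02 (SD, n = 2) in NSN and 1.36 ± 0.01 in SN, lower in both SN libraries, with an exact two-sided permutation p of 0.333, the smallest that 2 against 2 can give. The difference of -0.09 shrank to -0.04 without Rps27l, the abundant small subunit gene that was called. The sums run over 51 large and 33 small subunit genes. The median FPKM per gene was closer between the subunits, from 16.3 to 21.8 for the large and from 14.0 to 17.4 for the small subunit.

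Groups of members within the subunits were small and mostly did not pass. Of 13 tested proteins of the small subunit head, 1 was called higher (Rps12) and 0 lower, with a median log2 fold change of 0.26, and SN lay above NSN without overlap in 8 and below in 0 (44.8% and 17.8% of all tested genes, of which 5.95% were called higher and 1.98% lower). Of 18 tested proteins of the body and platform, 0 were called higher and 1 lower (Rps23), with a median of 0.17. SN lay above NSN without overlap in 11 of these 18 and below in 2. The share above was 61.5% for the head, 61.1% for the body and platform and 62.5% for all tested small subunit genes. Of 8 proteins at the exit tunnel and its rim, 1 was called higher (Rpl39) and all 8 had a log2 fold change above 0 (66.7% of all tested genes), from 0.05 for Rpl4 to 0.50 for Rpl39, while after median ratio scaling 6 were above 0 and 0 were called.

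None of the acidic stalk proteins Rplp0, Rplp1, Rplp2 and their base Rpl12 was called, with log2 fold changes from -0.06 for Rplp0 to 0.31 for Rplp2. The 5S particle proteins Rpl5 and Rpl11, which also bind Mdm2, moved apart in value, at -0.29 ± 0.08 and 0.07 ± 0.08, and neither was called. Among the X-linked members Rpl10, Rps4x, Rpl39 and Rpl36a, 1 was called higher (Rpl39), against 5.95% of all tested genes. Their log2 fold changes ran from -0.14 for Rpl10 to 0.52 for Rpl36a. Fau and Rps27a, made as fusions with a ubiquitin-like protein or ubiquitin, had 0.30 ± 0.09 and 0.16 ± 0.07 and were not called.

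The length of the gene went with the direction of the difference. The length that the authors divided by was recovered from the FPKM, as the smallest length that gives whole read pairs, and the tested members were split by it into 3 classes, a division chosen after the values were seen. The 27 shortest members (383 to 816 bp) had a median log2 fold change of 0.48, none was below 0, and all 5 members called higher were among them. The middle 26 (830 to 1154 bp) had a median of 0.18 and held Rps23, and the 27 longest (1158 to 5395 bp) had a median of 0.05, with 11 below 0 and 0 called.

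**Figure D3:**
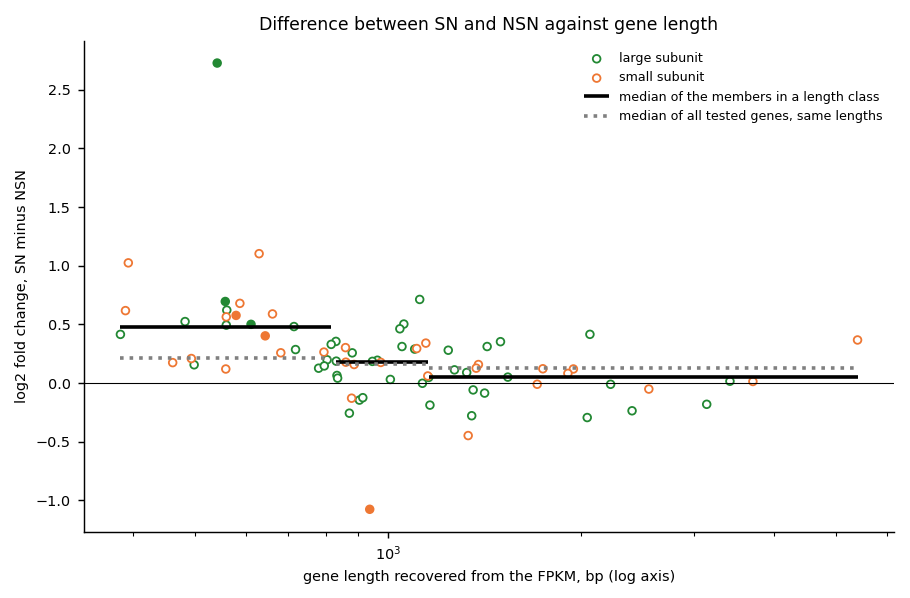
Log2 fold change, SN minus NSN, of the 80 tested members against the gene length recovered from the FPKM in bp (log axis), by subunit, with filled points for called members; black lines are medians of the members in each length class and dotted lines medians of all tested genes in that class. For all genes the shortest class has no lower limit of length and the longest class no upper limit. The members' medians step down from 0.48 to 0.18 and 0.05, while those of all genes are 0.21, 0.16 and 0.13.

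Spearman's rho between the log2 fold change and this length was -0.56 over the 80 members, and -0.62 with the length of the coding sequence over 79 of them, whereas over 11658 tested genes it was 0.06. These are descriptions across genes that share the same 4 libraries. All tested genes up to the upper limit of the shortest class, with no lower limit (1358 genes), had a median of 0.21 and 7.66% of them were called. After a loess correction for length in each library, the medians of the members in the 3 classes were 0.29, 0.02 and -0.04, so the step remained, while 1 member, Rps23, was called (1.23% of all genes). RNA quality and the size of the cDNA were not measured in the files, and their part in this step was not tested.

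Level and difference were linked more weakly, with a Spearman's rho of -0.32 over the same 80 members. The 27 members of lowest level (mean FPKM 1.14 to 10.5) had a median log2 fold change of 0.35, the middle 26 one of 0.26, and the 27 of highest level (33.2 to 729) one of 0.12. Of the 16 members at 100 FPKM or more, 5 had a log2 fold change below 0 and 1, Rps27l, was called. Of all tested genes 66.7% had a log2 fold change above 0 and 7.93% were called.

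The median absolute difference between replicates, on the scale of log2(FPKM + 0.5), was 0.13 in NSN and 0.16 in SN over the tested members, against 0.15 and 0.14 over all tested genes. The SN figure was 0.20 for the large and 0.11 for the small subunit, while the NSN figure was 0.13 in both. The spread fell with level, from 0.25 and 0.27 (NSN and SN) in the 27 lowest members to 0.08 and 0.14 in the 27 highest. All tested genes up to the upper limit of the lowest class, down to the filter at a mean FPKM of 0.5, had 0.18 and 0.17. Those above the lower limit of the highest class, with no upper limit, had 0.09 and 0.09. The middle 26 members had 0.14 and 0.16, against 0.12 and 0.11 for genes of their range. In the lowest and highest classes the genes covered a wider range of levels than the members. The members were the wider in 5 of 6 comparisons, all but NSN at the highest level. This was not tested.

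Replicates differed by 2-fold or more in 8 of the 84 members, 6 of which had a mean FPKM under 5. Above that level, Rpl38, Rpl23 and Rps27 were the widest described here. Rpl23, whose 4 values were 13.0 and 18.3 in NSN and 31.2 and 15.6 in SN, and Rps27, with 22.4 and 23.0 in NSN and 32.3 and 20.3 in SN, were each highest in SN replicate 1, as Rpl38 was. Rps18, below that level, had 1.44 and 4.39 in NSN and 4.71 and 3.47 in SN, with NSN replicate 1 apart.

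**Figure D4:**
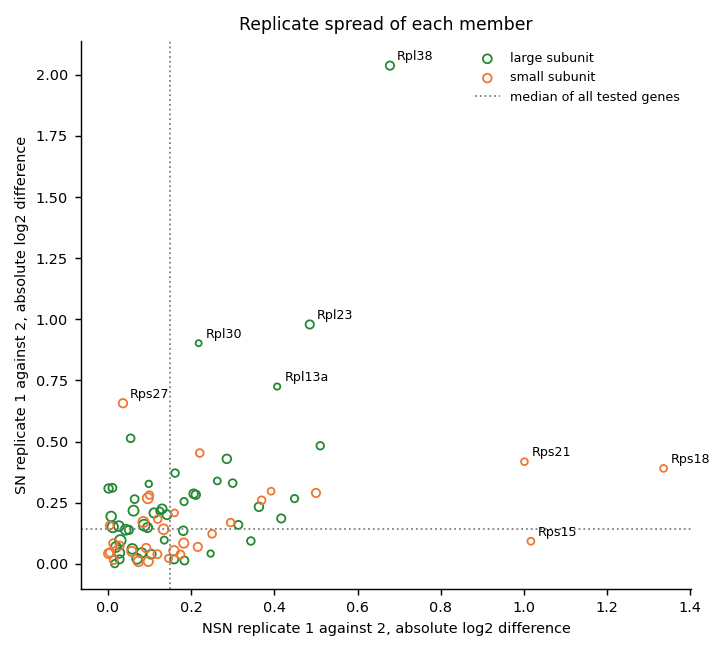
Absolute log2 difference between the 2 NSN replicates (horizontal) and between the 2 SN replicates (vertical) for the 80 tested members, by subunit, with larger symbols for higher mean FPKM and dotted lines at the medians of all tested genes, 0.15 and 0.14. Rpl38 stands alone at 2.04 on the SN axis, and Rps18 lies farthest out on the NSN axis at 1.34.

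The paralogs were set beside the genes they resemble. Rps27l was between 5.15 and 9.57 times as high as Rps27 in the 4 libraries, and 76.2% of the bases of the shorter of their coding sequences were identical in an alignment. Rpl39l, known for its expression in the testis, had 16.3 and 18.3 FPKM in NSN and 19.6 and 19.9 in SN, between 1.13 and 1.45 times Rpl39, with 85.0% of the bases identical and none of its own coding windows elsewhere in the genome. Rpl22l1 was at 1.12 to 1.55 times Rpl22, and Rpl7l1 at 0.960 to 1.19 times Rpl7. The share of coding windows elsewhere was 100% for Rps27 against 9.13% for Rps27l, 50.6% for Rpl39, 60.2% for Rpl7 against 7.38% for Rpl7l1, and 9.03% for Rpl22 against 72.3% for Rpl22l1. The part of reads lost to copies in these ratios was not tested.

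By contrast, Rps4x was 3.17 to 5.26 times as high as Rps4l, and Rpl10 was 479 and 540 times as high as Rpl10l in NSN replicates 1 and 2, on 8 and 7 read pairs for the latter. The ratio of Rps4l to Rps4x was 0.279 and 0.316 in NSN and 0.190 and 0.191 in SN, lower in both SN libraries. Of the 5 tested paralogs 1 was called higher (Rps27l). The list of 8 parents adds Rpl3 and Rpl26 to the parents named here, and 1 of them was called higher (Rpl39). Of all tested genes 5.95% were called higher.

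**Figure D5:**
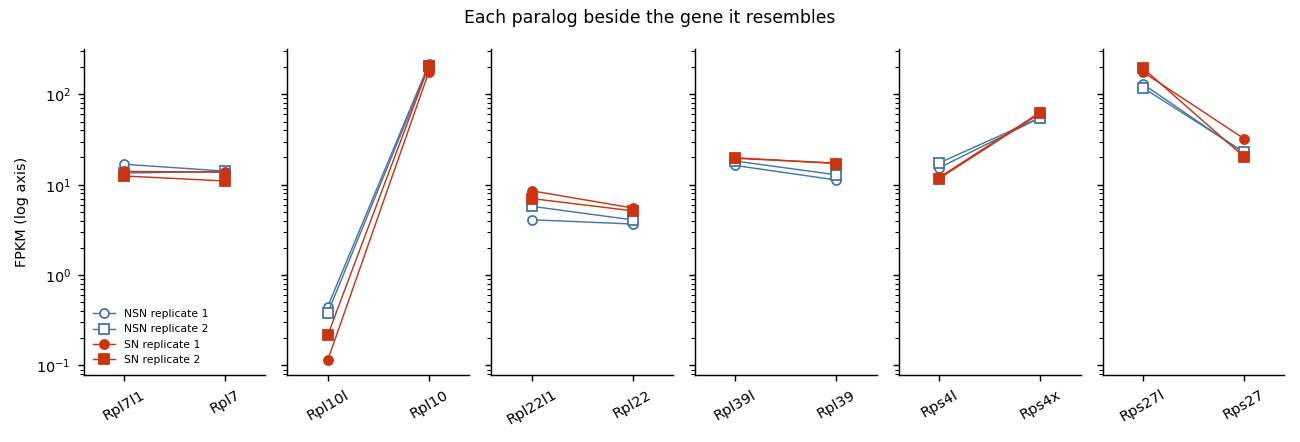
FPKM (log axis) of each of 6 paralogs and of the gene it resembles, with a line for each library, open for NSN and filled for SN. Rps27l lies above Rps27 and Rpl39l above Rpl39 in the 4 libraries, while Rpl10l lies at the foot of the axis beside Rpl10.

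Calls fell on members with and without a pyrimidine run near the start. Of the 58 tested members with a RefSeq start, the 30 with a run of at least 7 within 10 bases of it had a median log2 fold change of 0.27 and 4 calls, and the 28 without one had 0.14 and 2 calls. Of all tested genes 7.93% were called in either direction. Among 17 other genes of translation and growth whose messages are known to carry TOP motifs, 2 were called higher and 0 lower (5.95% and 1.98% of all tested genes), with a median of 0.07. Eif3e, a subunit of an initiation factor, had 112 and 124 FPKM in NSN and 160 and 163 in SN, with a log2 fold change of 0.45 ± 0.08 (adjusted p = 0.0386 by limma). The other was Hnrnpa1, at 99.4 and 111 in NSN and 144 and 139 in SN. Neither passed by limma under median ratio scaling (adjusted p = 0.0760 and 0.0878), after the length correction (0.0594 and 0.0607) or with the replicate block (0.0502 and 0.0607). Both passed by voom (adjusted p = 0.00388 and 0.00479). The lowest of that list was Pabpc1, the poly(A) binding protein, with 0.979 and 1.07 in NSN and 0.873 and 0.749 in SN.

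Of 5 tested chaperones that escort single ribosomal proteins, 1 was called higher, against 5.95% of all tested genes. This was Bccip, which handles Rpl23, with 25.5 and 33.1 FPKM in NSN and 44.7 and 47.4 in SN (0.65 ± 0.13, adjusted p = 0.0436 by limma). It did not pass by limma under median ratio scaling (0.0668) or after the length correction (0.0608), while it passed by limma with the replicate block (0.0498) and by voom (0.00372). The lowest was Heatr3, an import factor for Rpl5, with 2.63 and 1.92 in NSN and 1.80 and 1.67 in SN. Of 2 tested proteins that bind TOP messages 0 were called. Cnbp had 816 and 687 in NSN and 597 and 524 in SN, with a log2 fold change of -0.42 ± 0.11 that did not pass (adjusted p = 0.0608 by limma), while it passed with the replicate block (0.0498) and by voom (0.00605). Larp1, the best known of them, had 0.338 and 0.388 in NSN and 0.265 and 0.176 in SN and was below the level for a test.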

How the data were processed

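Poly(A) RNA of 4 pools of 15 GV oocytes (2 NSN, 2 SN) was sequenced after 18 cycles of cDNA amplification. The protocol in the labels speaks of 3 samples per group, and 2 per group were analysed here. Per the methods and the labels, the authors trimmed reads with Trim Galore 0.6.10, aligned them to GRCm39 using HISAT2 and assigned pairs to exons using featureCounts (primary alignments, mapping quality of at least 10, no strand), and the values the authors deposited are FPKM. The deposited FPKM were turned back into read pairs with the lengths of 5 mitochondrial tRNA genes. Of the genes, 99.9% gave whole numbers, within an absolute tolerance of 1e-06 that was wider for high counts. These are the smallest whole numbers possible, and a factor common to 4 libraries cannot be seen.

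SN was compared with NSN by limma 3.58.1 in R 4.3.3 (lmFit, eBayes with trend, two-sided) on log2(FPKM + 0.5) for genes whose mean FPKM reached 0.5. In 5 simulated sets with 200 changed genes, 58.5% of them were recovered, 82.0% of those changed 2- or 3-fold, and 10.4% of calls were wrong (medians). The simulation gave all genes the same fixed dispersion and held no shift common to a library. It changed only genes above a minimum of read pairs. These shares therefore need not hold for the calls made on the real libraries. The members, the lists and the rule for the genes named were chosen with earlier results of these data known. Named were called members, the 3 largest and 3 smallest log2 fold changes and the 4 highest and 4 lowest levels in each subunit, the 4 widest replicate differences above a mean FPKM of 5, examples of each list, and called or extreme genes of the lists of non-members. Some genes that the rule names are not reported here. Rps3 was named for its copies, Rpl38-ps2 and Rpl17-ps10 as pseudogenes, and Rpl13a in a plot, after their values were seen. Coding sequences, positions and overlaps between exons came from GENCODE vM39 on GRCm39, and start windows from RefSeq on GRCm38.p6. The paper counted reads on an earlier GENCODE release, so the overlaps given here may differ from those that acted on the counts. Alternatives were pseudocounts of 0.1 and 1, other filters, scalings, call rules and member lists, no variance trend, a replicate block, a length correction (loess span 0.3), voom on the recovered read pairs, and each library left out. Values outside limma came from Python 3.11.15, with scipy 1.17.1 and Biopython 1.88.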

Additional observations from a re-analysis of the deposited data

How the results depend on the processing

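The 6 called members became 0 of 84 without a filter (35 at an unadjusted p under 0.05) and 0 without the variance trend (24), 18 of 67 at a mean FPKM of at least 5, 2 under median ratio scaling, 3 under quantile normalisation, 1 after the length correction and 22 at an adjusted p under 0.1. By voom on read pairs it was 9, and 5 with median ratio scaling. Leaving out 1 library gave 0 to 13, with 0 without NSN replicate 1 (19 at an unadjusted p under 0.05), 13 without NSN replicate 2, 3 without SN replicate 1 and 1 without SN replicate 2, where the lone library is assumed to vary like the other group. The count over all genes went from 926 to 0, 0, 1496, 257, 230, 143 and 2370 under those first 7 alternatives, to 2308 and 1717 by voom, and to 0 to 1685 with 1 library left out. The replicate numbers are shared between groups without a stated batch, and the correlation of same-numbered deviations over 11672 genes was -0.07. A single correlation over genes cannot show whether same-numbered libraries shared a batch. With the replicate block 2 members (Rps23 and Rps27l) and 422 genes were called, and with block and length correction 0 members (19 at an unadjusted p under 0.05) and 0 genes (2797 at that p). Rps23 stayed below 0 and Rpl38, Rps27l, Rpl37a, Rpl39 and Rps12 above 0 in every fit listed here.

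The median log2 fold change of members moved from 0.182 to 0.0313 under median ratio scaling, 0.0885 under quantile normalisation, 0.0325 after the length correction with or without the block, and 0.0314 by voom with median ratio scaling, and it was 0.152 to 0.21 with 1 library left out. The difference between subunits was -0.0361 to 0.0257 in all fits, and -0.0247 to 0.00973 with 1 library left out. Directions turned for uncalled genes. Under median ratio scaling Rpl17 was at -0.0643, Rpl4 at -0.103 and Rps2 at -0.0934, and by voom with that scaling at -0.0639, -0.103 and -0.0927. After the length correction, with or without the block, Rpl17 was at -0.016, Rpl4 at -0.0369, Rps2 at -0.0627 and Rps27 at -0.031. With 1 library left out, Rplp0 ran from -0.133 to 0.0174, Rps27 from -0.154 to 0.503 and Rps2 from -0.0734 to 0.195, each turning with an SN library, and Rps18 from -0.104 to 1.23, turning without NSN replicate 1. The cause of these changes was not tested. With 2 libraries per group, members of few read pairs limit what can be seen.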
